A study of Homo sapiens with 6 samples.

Results

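The 46 genes described here are proliferation genes of S phase and mitosis: cyclins and their kinases, the proteins that license and fire replication origins, suppliers of deoxynucleotides, the E2F and MYB transcription factors of the cell cycle, and the kinases, motors and centromere proteins of mitosis. They were chosen by their function in DNA replication or cell division and by no measured value, but with earlier results of these data known. All 46 symbols were found among the 56638 genes of the deposited table. CDK2, the kinase partner of cyclins E and A, was listed at 0 in all 6 libraries, so values are given for 45 members. The other 45 all passed the filters on low counts. In the annotation used here (GENCODE release 44 on GRCh37), 0% of the CDK2 span lies outside other genes. The same holds for GINS4, a replication gene outside the members, which had 607 H3K4me3 counts in DMSO. The reason for the 0 of CDK2 was not tested.

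The libraries came from G401, an established human malignant rhabdoid tumor line that lacks the chromatin remodelling subunit SMARCB1. Cells were kept for 3 days in DMSO or in 3 µM MAK683, a PRC2 inhibitor that acts by binding EED. Each treatment had 1 H3K4me3 ChIP-seq library, 1 H3K27me3 library and 1 input library (sonicated chromatin sequenced without antibody). No value therefore had a replicate check, no p-value was computed, and the 95% Clopper-Pearson intervals given below cover counting error only. SMARCB1 had 0 input counts in both treatments.

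Library totals lay between 13308099 counts (H3K27me3, MAK683) and 21281877 counts (H3K4me3, DMSO), so a floor of 3 counts in a library corresponds to 0.141 to 0.225 CPM, counts scaled by the library total. The values are read counts per gene, as whole numbers, and whether they were scaled beforehand is not given. Which features of a gene were counted is not given in the sources used here. Unless stated otherwise, libraries were compared in CPM, which shows how the reads of a library were spread over genes and not how much of a modification a cell held. Differences between treatments are written as log2 ratios of (MAK683 + 1) to (DMSO + 1) counts after the library totals are taken into account, and levels as log2 ratios of antibody to input CPM of the same gene. An interval is called below or above equal where it leaves out a CPM ratio of 1 on that side.

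Proliferation genes are expressed in waves through the cell cycle. In resting cells the DREAM complex, built around E2F4 and the RB relatives p107 and p130, holds many of them off; E2F1 to E2F3 activate the genes of S phase, while MYBL2, FOXM1 and the MuvB core activate those of mitosis. E2F sites are typical of the first group and CHR elements, often beside CCAAT boxes bound by NF-Y, of the second. H3K4me3 marks the start regions of active or poised genes, and H3K27me3, laid down by PRC2, covers silenced genes.

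The promoters of the members carried the letters of these elements more often than promoters at large. Promoter windows from 250 bases before to 50 bases after the RefSeq start (GRCh38.p14 table) were at hand for 39 members, and each was found unchanged on GRCh37, to which the coordinates below refer. CCNE2, CDK2, MCM4, MCM5, AURKA, TTK and BIRC5 had no entry. On both strands, an E2F motif (TTTCCCGC, TTTCGCGC, TTTGCCGC or TTTGGCGC) was present in 16 of 39 windows (41.0%), against 3.33% of all 27303 promoters in the table. A CHR motif (TTTGAA or TTCGAA) was also present in 16 windows (41.0%, against 16.6%), and CCAAT in 31 (79.5%, against 35.7%). Overlapping matches were each counted.

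The motifs followed the roles of the genes. E2F letters were found in 6 of 7 origin licensing windows and in 0 of 7 windows of mitotic kinases and checkpoint genes, whereas CHR letters were found in 1 of 7 and 5 of 7 of these, and in 6 of 7 windows of spindle, centromere and chromosome genes. CCNE1, MYBL2 and CENPE held none of the 3 motifs. The ratio of observed to expected CpG was at least 0.6 in 37 of 39 windows (94.9%), against 49.0% of all promoters and 65.8% of protein-coding ones. A match is a description of letters and not of a bound site.

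The S phase windows are printed because they show the E2F arrangement, and the TYMS window, chosen after its values were seen, because that gene stands apart below. All are on GRCh37, 5′ to 3′ on the strand of the gene, with E2F, CHR and CCAAT matches in capitals on either strand. CDC6 is at chr17:38443881-38444180 (plus strand), MCM2 at chr3:127317004-127317303 (plus), E2F1 at chr20:32274142-32274441 (minus) and TYMS at chr18:657403-657702 (plus). In MCM2 the capitals hold 2 overlapping matches, beginning 3 and 7 bases after the start.
CDC6: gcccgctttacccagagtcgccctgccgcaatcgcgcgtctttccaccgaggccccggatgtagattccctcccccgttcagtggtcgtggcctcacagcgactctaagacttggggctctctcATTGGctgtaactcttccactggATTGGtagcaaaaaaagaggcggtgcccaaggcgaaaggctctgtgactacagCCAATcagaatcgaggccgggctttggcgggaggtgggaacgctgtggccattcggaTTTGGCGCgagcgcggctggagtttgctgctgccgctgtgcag
MCM2: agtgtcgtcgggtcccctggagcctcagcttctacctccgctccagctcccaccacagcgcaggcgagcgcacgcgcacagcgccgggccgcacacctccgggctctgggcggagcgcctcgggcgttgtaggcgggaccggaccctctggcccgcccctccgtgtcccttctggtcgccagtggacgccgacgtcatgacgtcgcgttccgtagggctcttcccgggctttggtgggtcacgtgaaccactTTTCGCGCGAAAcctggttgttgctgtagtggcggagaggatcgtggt
E2F1: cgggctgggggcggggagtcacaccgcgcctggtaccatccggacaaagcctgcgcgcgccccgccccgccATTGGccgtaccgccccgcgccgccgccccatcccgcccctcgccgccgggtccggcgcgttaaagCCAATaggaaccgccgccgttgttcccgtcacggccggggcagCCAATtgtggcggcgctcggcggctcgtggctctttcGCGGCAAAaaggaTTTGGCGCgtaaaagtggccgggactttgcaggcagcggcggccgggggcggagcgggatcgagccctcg
TYMS: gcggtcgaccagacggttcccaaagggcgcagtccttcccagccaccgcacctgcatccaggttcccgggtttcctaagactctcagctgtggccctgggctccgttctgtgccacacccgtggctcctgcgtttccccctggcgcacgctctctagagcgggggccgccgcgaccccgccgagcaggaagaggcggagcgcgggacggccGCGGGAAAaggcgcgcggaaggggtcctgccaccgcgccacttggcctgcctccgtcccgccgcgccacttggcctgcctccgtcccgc

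The windows of genes that act in G2 and mitosis show the CHR and CCAAT arrangement. PLK1 is at chr16:23689960-23690259 (plus strand), CDC20 at chr1:43824402-43824701 (plus), CCNB1 at chr5:68462727-68463026 (plus) and CDK1, chosen after its values were seen, at chr10:62537839-62538138 (plus). The CHR match of PLK1 begins 29 bases before the start with a CCAAT box at 73, and those of CDC20 begin at 178 and 65. CCNB1 holds CCAAT boxes at 87 and 55 and neither of the other motifs. CDK1 holds a CHR match, a CCAAT box and, 20 bases after the start, an E2F match.
PLK1: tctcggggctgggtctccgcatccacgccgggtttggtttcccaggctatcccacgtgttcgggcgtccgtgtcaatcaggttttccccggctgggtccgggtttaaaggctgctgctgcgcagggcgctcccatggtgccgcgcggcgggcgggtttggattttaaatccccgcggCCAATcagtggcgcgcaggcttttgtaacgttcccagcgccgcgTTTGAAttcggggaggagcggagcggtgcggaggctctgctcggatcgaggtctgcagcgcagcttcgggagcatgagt
CDC20: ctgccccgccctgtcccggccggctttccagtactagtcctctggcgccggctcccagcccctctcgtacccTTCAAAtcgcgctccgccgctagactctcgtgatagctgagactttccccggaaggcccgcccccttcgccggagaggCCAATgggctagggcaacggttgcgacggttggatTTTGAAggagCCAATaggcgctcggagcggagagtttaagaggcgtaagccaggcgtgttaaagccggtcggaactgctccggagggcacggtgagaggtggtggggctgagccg
CCNB1: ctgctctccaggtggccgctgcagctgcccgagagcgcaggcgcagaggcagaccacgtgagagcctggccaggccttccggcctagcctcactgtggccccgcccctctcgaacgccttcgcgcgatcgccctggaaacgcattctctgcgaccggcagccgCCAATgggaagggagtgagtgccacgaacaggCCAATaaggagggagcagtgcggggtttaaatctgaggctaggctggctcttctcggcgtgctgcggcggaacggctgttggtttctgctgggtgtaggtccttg
CDK1: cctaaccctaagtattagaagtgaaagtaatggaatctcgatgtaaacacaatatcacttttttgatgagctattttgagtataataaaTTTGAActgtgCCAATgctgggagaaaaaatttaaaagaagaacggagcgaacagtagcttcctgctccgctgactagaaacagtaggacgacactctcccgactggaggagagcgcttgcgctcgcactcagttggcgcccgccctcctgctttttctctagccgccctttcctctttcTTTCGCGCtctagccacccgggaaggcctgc

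In DMSO the members carried H3K4me3 and little H3K27me3. The median member had an H3K4me3 level of 1.59 (log2 over input, 95% rank interval 0.98 to 2.27), against -0.34 over all 29064 genes with at least 10 input counts and 0.18 over protein-coding genes. The level was at least 2 times input in 29 of 45 members, against a background of 22.1% of all genes. H3K27me3 had a median level of -1.12 (-1.17 to -1.03), against -0.68 over all genes and -0.83 over protein-coding genes. Among genes with H3K4me3 at least 2 times input the median H3K27me3 level was -0.97, against -1.12 for the 29 members among them. H3K27me3 was below input in all 45 members in CPM and in 42 on a median-of-ratios scale. In CPM it was at least 2-fold below input in 31 members (background 28.5%) and at least 2-fold above it in 0 (background 11.9%). On the median-of-ratios scale the median level was -0.40, against 0.03 over all genes, and 2 members were at least 2-fold below input (background 3.09%). By comparison, 15 genes that the study names as PRC2 targets had a median H3K27me3 level of 1.31.

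**Figure D1:**
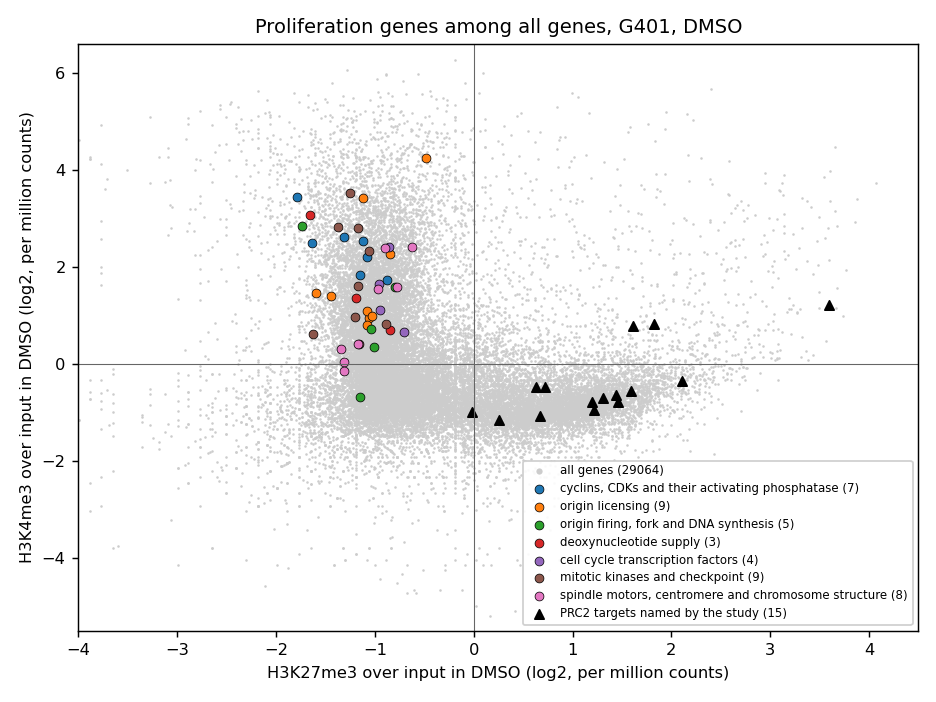
H3K27me3 (horizontal) and H3K4me3 (vertical) levels in DMSO as log2 antibody over input CPM, 1 point per gene, members coloured by role, PRC2 targets named by the study as triangles and 29064 genes in grey (a few lie outside the axes). All 45 members lie left of 0 for H3K27me3, between -1.79 and -0.49, and 43 lie above 0 for H3K4me3.

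The highest H3K4me3 levels in DMSO were those of CDT1 (4.24), CDC20 (3.53) and CCNA2 (3.46), and the lowest those of POLA1 (-0.67), CENPE (-0.14) and KIF23 (0.04). CDT1 loads the MCM helicase onto origins, CDC20 activates the anaphase-promoting complex, and CCNA2 is cyclin A2. POLA1, the catalytic subunit of DNA polymerase alpha, had 1602 H3K4me3 counts, more than the 1531 of CDT1, but also 2021 input counts against 63. Its span of 303 kb is the longest of the members.

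This order went with gene length. Input counts were higher in longer genes across the 45 members (Spearman rho 0.89, a description across genes), and H3K27me3 counts did so nearly as closely (0.87), while H3K4me3 counts hardly did (0.35). The quartiles of H3K4me3 counts in DMSO lay 1.42-fold apart, from 980 to 1393, against 3.19-fold for input. The H3K4me3 level over input was lower in longer genes (rho -0.79). RRM2, the small subunit of ribonucleotide reductase, and BIRC5 (survivin) had under 3 input counts per kb against 5.47 to 16.6 in the other 43, so their annotated spans may not be what was counted. Without RRM2 the rho between length and level was -0.88.

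Within classes of length the members still carried more H3K4me3 than the protein-coding median. The 5 members under 10 kb had a median level of 3.46, against 0.77 for protein-coding genes of that length. The 21 members of 10 to 30 kb had a median of 1.85 against 1.16, and the 18 members of 30 to 100 kb one of 0.72 against 0.36. POLA1, the only member over 100 kb, lay at -0.67 against -0.53. Of the 10 to 30 kb members 20 were at least 2 times input, against 53.2% of protein-coding genes in the class.

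**Figure D2:**
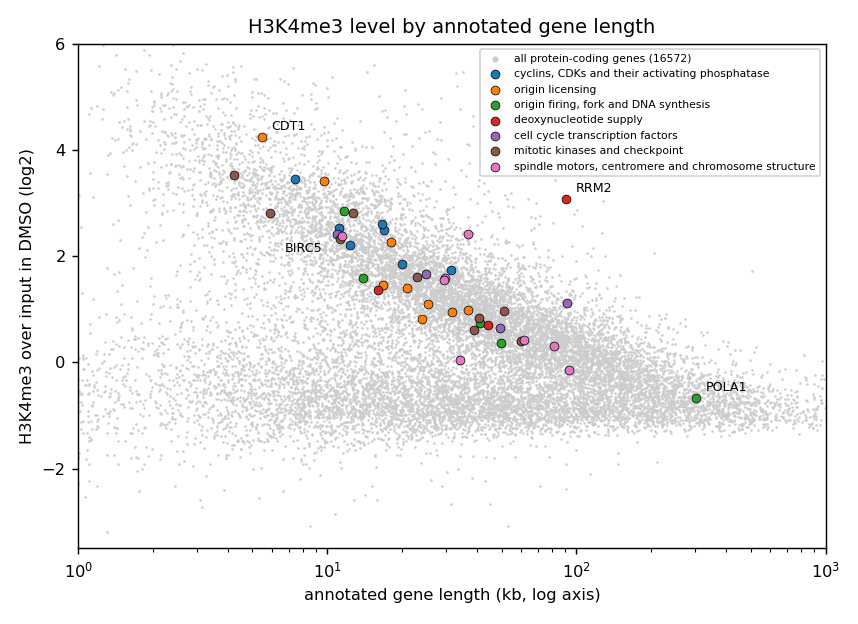
H3K4me3 level in DMSO (log2 over input) against annotated gene length in kb on a log axis, members coloured by role and protein-coding genes in grey. Members follow the upper band of genes from 3.53 for the 4.22 kb of CDC20 to -0.67 for the 303 kb of POLA1, with RRM2 (3.08) above it at its annotated length.

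With MAK683, H3K4me3 CPM were lower at all 45 members. The median difference was -0.36 (log2, -0.43 to -0.31), with the members between -0.57 and -0.04. The counting interval lay below equal in 42 members, against a background of 21.3% of 30028 genes tested, and above equal in 0 (background 19.5%). It lay below equal in 30.2% of protein-coding genes and in 60.3% of genes with H3K4me3 at least 2 times input in DMSO. The backgrounds given for roles below are those of all genes tested. No member reached a 2-fold difference, lower (background 1.79%) or higher (4.22%). Over all genes the median difference was 0.00 and over protein-coding genes -0.04. The members summed to 0.248% of the H3K4me3 library in DMSO and 0.195% in MAK683, against 0.105% and 0.102% of input. Counts as deposited were also lower at all 45, and after division by input 44 were lower, with TYMS at 0.16 on the other side.

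**Figure D3:**
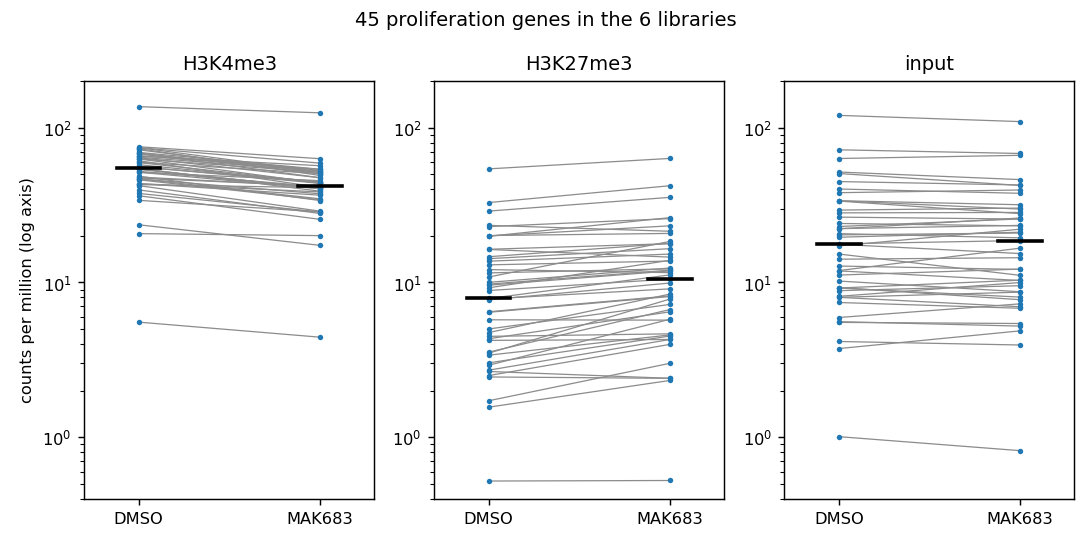
CPM (log axis) of the 45 members with counts in the DMSO and MAK683 libraries of H3K4me3, H3K27me3 and input, with 1 line per gene and bars at the medians. The median goes from 54.5 to 41.9 for H3K4me3, from 7.88 to 10.5 for H3K27me3 and from 17.6 to 18.7 for input, while in counts as deposited 32 of the 45 were lower in H3K27me3.

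H3K27me3 CPM differed in the other direction. The median difference was 0.30 (0.22 to 0.40) in CPM, but -0.22 in the counts as deposited, since the MAK683 library of H3K27me3 was 0.694 times as large as that of DMSO. On the CPM scale, 39 members were higher and 6 lower, while 63.9% of protein-coding genes were higher. The interval lay above equal in 19 (background 22.7%, or 28.7% of protein-coding genes) and below equal in 0 (background 13.6%). TYMS was the only member at least 2-fold higher (background 3.96%), and 0 were at least 2-fold lower (background 2.88%). As deposited, counts were higher at 12 members, lower at 32 and equal at 1, so that 26 members higher in CPM were lower in counts. The interval then lay above equal in 1 member (background 1.65%) and below equal in 16 (background 54.5%). The median of all genes was 0.09 in CPM and -0.44 as deposited. The ratio as deposited is the CPM ratio times 0.694, and the H3K27me3 directions below hold on the CPM scale.

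Over input, as shares of a library, the marks drew closer together. The study reports a broad loss of H3K27me3 signal across the genome with MAK683, which CPM cannot show. With MAK683 the median H3K4me3 level was 1.18 and 26 members were at least 2 times input (background 20.8%). The median H3K27me3 level was -0.79, against -0.64 over protein-coding genes and -0.48 over all genes, whose median had been -0.68 in DMSO. Genes with H3K4me3 at least 2 times input in DMSO had a median of -0.76, as did the 29 members among them. In CPM 10 members were at least 2-fold below input (background 13.1%), or 0 on the median-of-ratios scale (background 3.4%). In CPM, TYMS at 0.17 was then the only member above input in H3K27me3, and on the median-of-ratios scale 39 of 45 lay below it. Of the 45 members 39 (86.7%) were lower in H3K4me3 and higher in H3K27me3 CPM, which 42.0% of protein-coding genes also were.

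**Figure D4:**
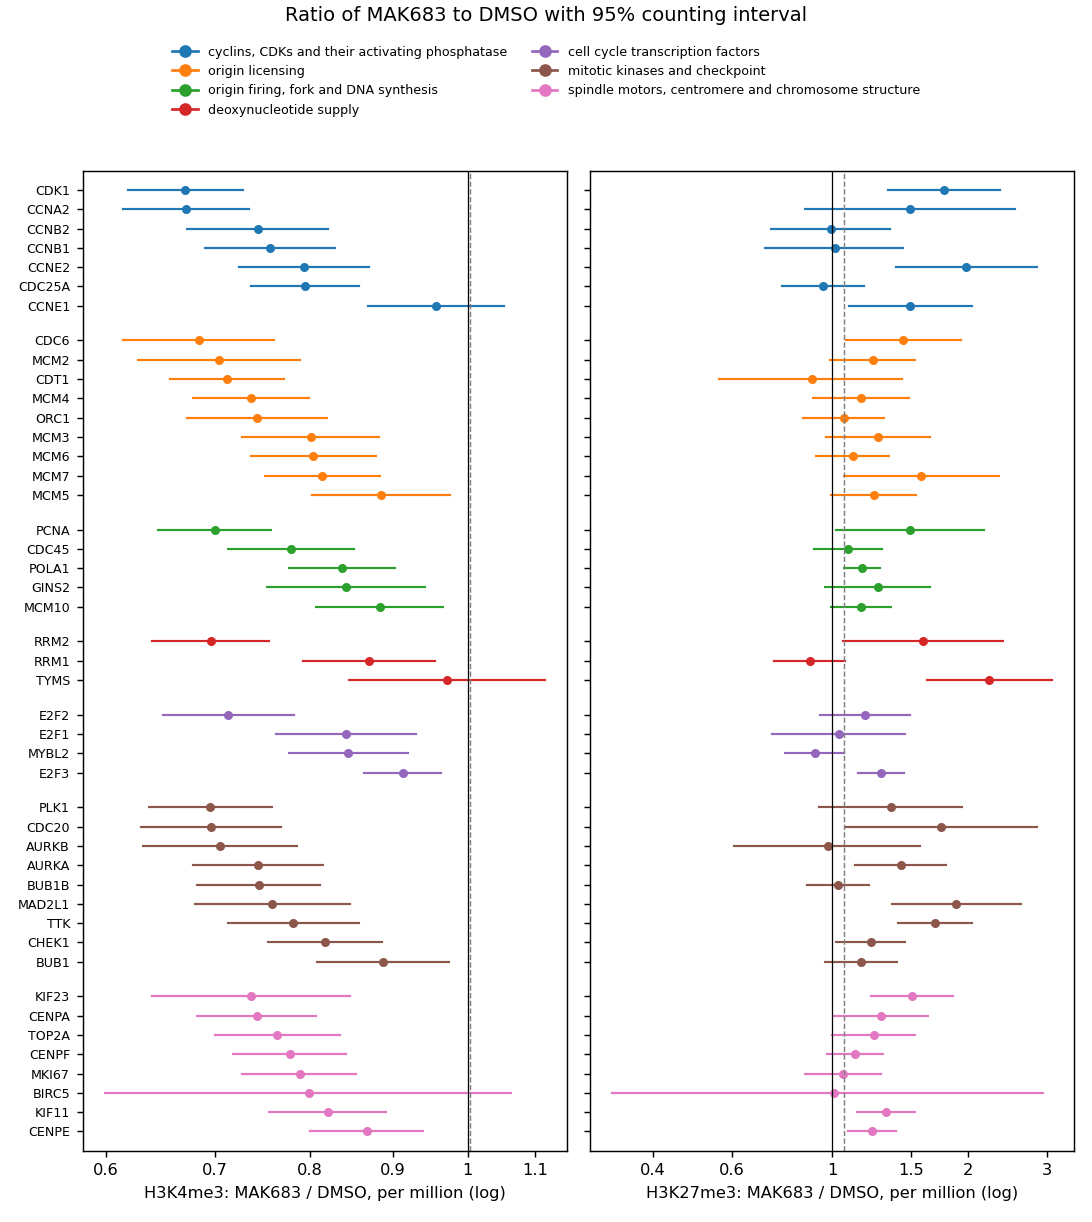
Ratio of MAK683 to DMSO CPM (log axes) for each member with its 95% counting interval, grouped by role, with the solid line at equal and the dashed line at the median of all genes. For H3K4me3 only the intervals of CCNE1, TYMS and BIRC5 cross equal, while for H3K27me3 26 of 45 do.

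Cyclins and their kinases held the 2 largest H3K4me3 differences of the set. Here and below, counts are given for DMSO and then MAK683, followed in brackets by the CPM ratio and, where given, its interval. CDK1, the kinase that drives entry into mitosis, went from 1557 to 964 H3K4me3 counts, a CPM ratio of 0.671 (0.619 to 0.728). CCNA2 had 1302 and 807 (0.672, 0.615 to 0.734). CCNB1, the cyclin B1 partner of CDK1, had 1144 and 798 (0.756), and its relative CCNB2 had 980 and 672 (0.744). The G1/S cyclins lay closer to equal: CCNE2 had 1112 and 814 (0.794), and CCNE1, with 912 and 804, had a ratio of 0.956 with an interval that included equal (0.868 to 1.05). CDC25A, the phosphatase that activates CDK2, had 1580 and 1158 (0.795).

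For H3K27me3 the same genes held 30 to 232 counts in DMSO, and their intervals were wide. CCNE2 had 56 counts in DMSO and 77 in MAK683, a CPM ratio of 1.98 (1.39 to 2.85), and CDK1 91 and 112 (1.77, 1.33 to 2.36). CCNE1 had 83 and 86 (1.49, 1.09 to 2.04), and CCNA2, with 30 and 31, had the same ratio of 1.49 but an interval from 0.871 to 2.54. CCNB1 (81 and 57) and CCNB2 (110 and 76) lay at 1.01 and 0.995, and CDC25A (232 and 154) at 0.956. CCNA2 had the lowest H3K27me3 level of all members in DMSO (-1.79), followed by PCNA (-1.74) and RRM2 (-1.66). Input counts of CDK1 were 200 and 201, and those of CCNA2 93 and 106.

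The origin licensing genes were lower in H3K4me3 at 9 of 9, each with an interval below equal (background 21.3%). CDC6, which with CDT1 loads the helicase, went from 899 to 567 counts (0.684, 0.615 to 0.761). CDT1 went from 1531 to 1005 (0.712, 0.657 to 0.771), and ORC1, the largest subunit of the origin recognition complex, from 994 to 681 (0.743). The helicase subunits spread from MCM2 (773 and 502 counts, 0.704) and MCM4 (1459 and 991, 0.737) through MCM3 (993 and 734, 0.802), MCM6 (1185 and 879, 0.804) and MCM7 (1371 and 1030, 0.815) to MCM5 (925 and 755, 0.885, 0.803 to 0.975). The intervals of MCM2 (0.628 to 0.789) and MCM5, the lowest and highest of these helicase ratios, do not overlap. They cover counting error only, and a difference between these genes was not tested.

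In H3K27me3 the licensing genes had a median difference of 0.30 in CPM. The interval lay above equal in 2 of 9 (22.2%), near the 22.7% of all genes. MCM7 had 52 counts in DMSO and 57 in MAK683 (1.58, 1.06 to 2.34), and CDC6 96 and 96 (1.44, 1.07 to 1.93). CDT1 had 51 and 32 (0.903), the highest H3K27me3 level of all members in DMSO (-0.49) and, with MAK683, a level of -0.99. Its input counts were 63 and 95. ORC1 had 221 and 163 (1.06), and MCM2 to MCM6 lay between 1.11 for MCM6 (263 and 203) and 1.27 for MCM3 (124 and 109), with MCM2 at 187 and 160, MCM4 at 150 and 121 and MCM5 at 184 and 158.

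Fork and synthesis genes had a median H3K4me3 difference of -0.26, with the sliding clamp farthest from equal. PCNA went from 1581 to 1020 H3K4me3 counts (0.700, 0.646 to 0.757), whereas CDC45 and GINS2 of the active helicase lay at 0.780 and 0.843, POLA1 (1602 and 1237) at 0.837 and MCM10, which helps the helicase to fire, at 0.883. All 5 intervals lay below equal (background 21.3%). PCNA had 58 and 60 H3K27me3 counts (1.49, 1.02 to 2.18) and POLA1, with the highest H3K27me3 counts of the set, 1038 and 842 (1.17, 1.07 to 1.28). The H3K27me3 level of POLA1 over input was -1.15 in DMSO, near the members' median.

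The deoxynucleotide genes differed among themselves. RRM2 went from 1453 to 932 H3K4me3 counts (0.696, 0.640 to 0.756), while RRM1, the large subunit of the same enzyme, lay at 0.870. TYMS, thymidylate synthase, had 440 and 394 H3K4me3 counts (0.971, 0.845 to 1.11), the ratio nearest to equal of all members. In H3K27me3 TYMS was higher in counts as deposited too, 104 against 67, with input counts of 135 and 136. Its CPM ratio was the largest of the set at 2.24 (1.63 to 3.09). RRM2 had 48 and 53 (1.59, 1.06 to 2.40), and RRM1 had the lowest ratio at 0.892 (313 and 194, 0.742 to 1.07). TYMSOS and ENOSF1 overlap part of the annotated span of TYMS, 75.1% of which is unshared.

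The transcription factors had a median H3K4me3 difference of -0.25, and E2F2 lay farthest from equal. E2F2 went from 1160 to 763 H3K4me3 counts (0.713, 0.650 to 0.782), while E2F1 had 926 and 719 (0.842), MYBL2 had 1272 and 991 (0.845) and E2F3, with the highest H3K4me3 counts of the set, 2908 and 2447 (0.912, 0.864 to 0.963). The interval of E2F2 does not overlap that of E2F3, but these are the lowest and highest ratios here, and a difference between them was not tested. In H3K27me3 E2F3 had 629 and 561 counts (1.28, 1.14 to 1.44), E2F1 86 and 62 (1.04), E2F2 170 and 140 (1.19) and MYBL2 448 and 285 (0.916, 0.787 to 1.07). E2F2 input counts were 290 and 431, so its H3K27me3 level over input was lower with MAK683 (-1.06) than in DMSO (-0.95).

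Mitotic kinases and checkpoint genes were lower in H3K4me3 at 9 of 9, each with an interval below equal (background 21.3%). PLK1, polo-like kinase 1, went from 1338 to 858 counts (0.695, 0.637 to 0.758), CDC20 from 1034 to 664 (0.696, 0.631 to 0.768) and AURKB, the kinase of the chromosomal passenger complex, from 843 to 548 (0.705, 0.632 to 0.786). The centrosomal kinase AURKA had 1153 and 791 (0.744), and BUB1B, a checkpoint inhibitor of CDC20, 1266 and 869 (0.744). MAD2L1, TTK and CHEK1 (1401 and 1056) lay at 0.759, 0.782 and 0.817, and BUB1 at 0.888.

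In H3K27me3 the interval lay above equal in 5 of 9, against 22.7% of all genes and 28.7% of protein-coding genes. MAD2L1, the MAD2 checkpoint protein, had 68 counts in DMSO and 89 in MAK683 (1.88, 1.36 to 2.62). CDC20 had 33 and 40 (1.75, 1.07 to 2.86), and TTK, the kinase that starts checkpoint signalling, 208 and 245 (1.70, 1.40 to 2.05). AURKA had 151 and 149 (1.42, 1.13 to 1.79). CHEK1, the kinase of the replication stress checkpoint, had 281 and 238 (1.22, 1.02 to 1.45). PLK1 had 65 and 61 (1.35, 0.937 to 1.95), and BUB1B (385 and 276, 1.03) and AURKB (47 and 32, 0.980) were near equal. TTK, MAD2L1 and CDC20 were among the 12 members with higher H3K27me3 counts as deposited in MAK683.

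Spindle, centromere and chromosome genes had a median H3K4me3 difference of -0.35, with 7 of 8 intervals below equal (background 21.3%). MKI67, which encodes the Ki-67 antigen, went from 1434 to 1043 counts (0.789, 0.728 to 0.855), and TOP2A, topoisomerase II alpha, from 1227 to 865 (0.764, 0.700 to 0.835). The centromeric histone CENPA had 1361 and 932 (0.743) and CENPF 1473 and 1057 (0.778). The kinesin KIF23 had 502 and 341 (0.737), KIF11 lay at 0.821 and CENPE at 0.867. BIRC5, with 118 and 87 counts, had a ratio of 0.799 and an interval from 0.599 to 1.06.

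In H3K27me3 KIF23 had 177 and 185 counts (1.51, 1.22 to 1.86), KIF11 381 and 349 (1.32), CENPE 554 and 472 (1.23) and CENPA 148 and 132 (1.28, 1.01 to 1.63). These were the 4 of 8 intervals above equal (background 22.7%). MKI67 had 249 and 183 (1.06, 0.870 to 1.29), TOP2A 192 and 165 (1.24, 0.999 to 1.53) and CENPF 440 and 344 (1.13). The H3K27me3 level of CENPA in DMSO (-0.63) was among the 3 highest, with CDT1 and MYBL2 (-0.70). CENPA had 201 and 325 input counts, and over input its H3K27me3 difference turned to -0.12. BIRC5, with 10 and 7 H3K27me3 counts, could not be placed.

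Members with more H3K4me3 tended to have larger H3K4me3 differences (Spearman rho -0.45 between mean level and difference over 45 genes, a description), and so did genes in the table as a whole. Among all genes with H3K4me3 at least 2 times input in DMSO the median difference was -0.19, and 60.3% had an interval below equal. The 29 members among them had a median of -0.40. When each member was set beside all genes in its class of mean H3K4me3 level, an arrangement added after seeing the data, 42 of 45 lay below the median of their class, by a median of 0.24 on the log2 scale, and 3 above it. The 3 were CCNE1, TYMS and E2F3, and the farthest below were KIF23 (-0.58), MCM2 (-0.45) and POLA1 (-0.40). In H3K27me3 30 members lay above and 15 below their class median, by a median of 0.097. TYMS (0.95), CCNE2 (0.76) and MAD2L1 (0.70) lay farthest above and RRM1 (-0.37), CDT1 (-0.34) and MYBL2 (-0.33) farthest below. The H3K27me3 interval lay above equal in 9 of 18 members with a mean level below -1, against 30.2% of all genes there. For levels of -1 to -0.5 it did so in 10 of 27 members, against 35.9%.

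**Figure D5:**
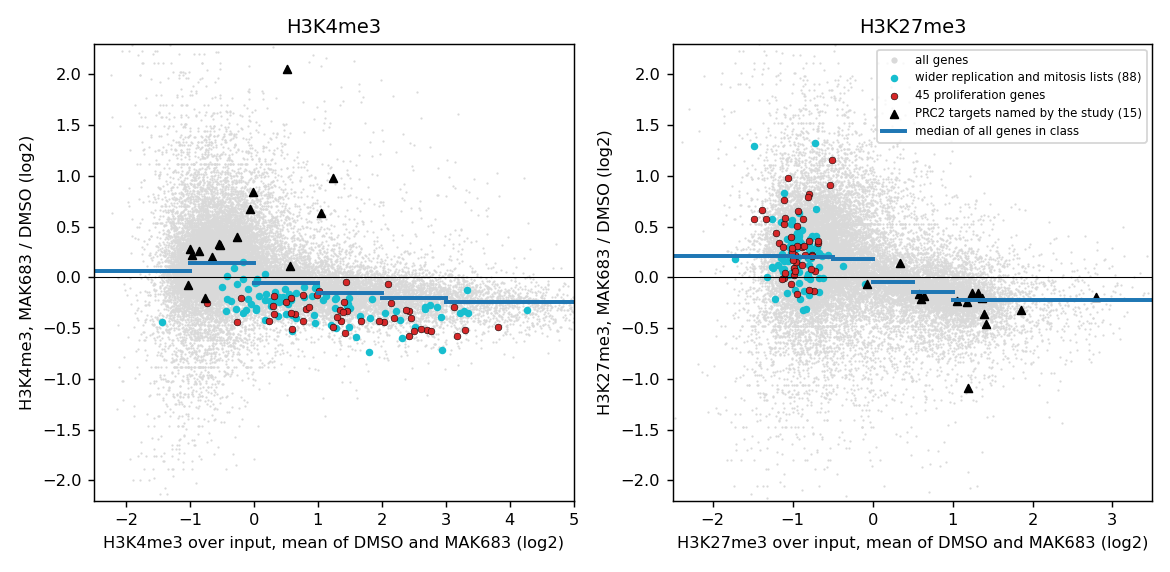
Log2 ratio of MAK683 to DMSO CPM against the mean log2 level over input, for H3K4me3 (left) and H3K27me3 (right), with members in red, other replication and mitosis genes in cyan, PRC2 targets named by the study as triangles and bars at the class medians of all genes. For H3K4me3 the class medians go from 0.15 at levels of -1 to 0 down to -0.25 above 3, and 42 of 45 members lie below their bar.

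The differences overlapped between members with different motifs. The 12 members with E2F letters and no CHR had a median H3K4me3 difference of -0.32, the 12 with CHR and no E2F one of -0.39, the 4 with both one of -0.37 and the 11 with neither one of -0.36. The ranges overlapped, from -0.55 to -0.04 in the first and -0.52 to -0.17 in the second. The corresponding H3K27me3 medians were 0.32, 0.26, 0.36 and 0.22. Across the 45 members the differences of the marks had a Spearman rho of -0.17.

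Other genes of the same pathways were lower in H3K4me3 as well. Of 38 further replication genes 37 were lower, with a median of -0.22. Their interval lay below equal in 27 (background 21.3%) and above it in 1, PRIM2 (background 19.5%). Of 52 further mitosis genes 51 could be compared, of which 48 were lower, with a median of -0.28. Against the same backgrounds, the interval lay below equal in 44 and above it in 1, MAD1L1. The lowest mitosis genes were the mitotic kinesin KIF20A (715 and 397 counts, log2 difference -0.73) and CDCA3 (860 and 482, -0.72), both lower than any member. The replication list ended at FEN1 (25 and 16, -0.50) and GINS4 (607 and 398, -0.49). Against genes of like level, 33 of 37 replication genes and 49 of 51 mitosis genes lay below their class median.

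H3K27me3 CPM was higher at 30 of 37 replication genes and 44 of 51 mitosis genes, with medians of 0.20 and 0.24, and at 58.1% of all genes. RPA3, a subunit of the single-strand binding protein RPA (18 and 32 counts, log2 difference 1.32), and the kinetochore protein ZWINT (16 and 28, 1.30) were highest, at few counts. RFC5 of the clamp loader (167 and 93, -0.31) and FOXM1 (134 and 74, -0.32) were lowest. Against genes of like level the replication list was split 18 above and 19 below, and the mitosis list 28 and 23.

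The brakes on the cell cycle, 10 CDK inhibitor and RB family genes, gave values for 8, with CDKN2A and CDKN2B listed at 0. For CDKN2A the study reports promoter H3K27me3 in G401 and induction of its product p16 by MAK683. Its 0 here therefore does not show the gene to be absent or unmarked. All 8 were lower in H3K4me3, with a median of -0.25, as were 49.4% of all genes tested and 87.3% of those with H3K4me3 at least 2 times input in DMSO. Against genes of like level their median was -0.12, with 7 of 8 below their class median. In H3K27me3 CDKN1C, which encodes p57, fell from 113 to 20 counts (log2 difference -1.91) and was the only one at least 2-fold lower, while CDKN1A, which encodes p21, had 65 and 90 counts (0.99). In contrast, the 15 PRC2 targets, which the study chose on these libraries, had a median H3K4me3 difference of 0.32. Their median H3K27me3 difference was -0.20, so that in CPM both marks were opposite in sign to the proliferation genes. Against genes of like level the medians of the PRC2 targets were 0.18 in H3K4me3 and -0.02 in H3K27me3. In H3K27me3 10 of them lay below their class median and 5 above it. In H3K4me3 13 of the 15 were higher, as were 50.6% of all genes, with TBX3 (2.05) and GATA3 (0.98) highest. GBP1 (-0.20) and ITGA2 (-0.07) were lower. In H3K27me3 14 were lower, as were 41.9% of all genes and 85.1% of genes with a mean level of at least 1. HLA-B (-1.08) and TBX3 (-0.46) were lowest, and COL4A5 lay at 0.14. GATA4 lay at 0.84 in H3K4me3 and -0.32 in H3K27me3.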

How the data were processed

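H3K4me3, H3K27me3 and input libraries of G401 (DMSO or MAK683, 1 library each) were analysed. Trimming by the authors used Trim Galore 0.4.4 and alignment to hg19 used Bowtie2. They took out repeats with Picard 2.23.6 and deposited featureCounts read counts per gene as whole numbers. The gene annotation and the part of a gene they counted are not given in the sources used here. A Drosophila spike-in is part of their methods. Whether the deposited counts were scaled by it is not given in the sources used here, so amounts per cell cannot be compared.

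Genes were matched by symbol to GENCODE release 44 on GRCh37. A level needed at least 10 input counts, and a difference at least 10 counts in 1 of both libraries. Log2 ratios used a pseudocount of 1 count, while ratios of single genes used none and carry 95% Clopper-Pearson intervals. Medians carry rank intervals. A call was a 2-fold difference, or an interval excluding equal. With 1 library per group no test was made. All members could be named, with counts for a fixed set and for the extremes, and in other lists from the 2 highest and 2 lowest, with GATA4 and TBX3 as a contrast. The members and lists were chosen with earlier results of these data known, and PRC2 targets are genes that the study itself chose on these libraries. The computation was tested on simulated data. Alternatives were other scales, pseudocounts, filters, division by input and unshared genes. Python 3.11.15, pandas 2.3.3, numpy 2.4.6, scipy 1.17.1 and matplotlib 3.10.9 were used.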

Additional observations from a re-analysis of the deposited data

How the results depend on the processing

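H3K4me3 was lower at 42 to 45 members under every alternative run, and its median of -0.36 became -0.48 in counts as deposited and -0.24 relative to genes of like level, an alternative added after seeing the data. The H3K27me3 difference depended on the scale: in counts as deposited its median was -0.22, with 12 members higher, 1 interval above equal (1.65% of all genes) and 16 below (54.5%). A total of 26 members turned from higher to lower, among them 7 whose CPM interval lay above equal, POLA1 (-0.30), E2F3 (-0.16), AURKA (-0.019), CHEK1 (-0.24), KIF11 (-0.13), CENPA (-0.16) and CENPE (-0.23). Divided by input, CENPA lay at -0.12. Relative to genes of like level the median was 0.097. A stricter filter left 28 members, 25 of them higher and 10 with an interval above equal, because fewer genes were tested. With a median-of-ratios scale the H3K27me3 level was -0.40 in DMSO and -0.25 in MAK683, with 2 and 0 members at least 2-fold below input (3.09% and 3.4% of all genes). The members' median input difference was -0.05 in CPM, with 25 lower and 20 higher, and 0.16 in counts as deposited. Leaving out the 2 members of low input per kb, also added after seeing the data, kept the H3K4me3 difference lower at 43 of 43. No paired analysis was possible because each treatment had 1 library per antibody. H3K27me3 depth limits genes such as BIRC5 and CCNA2, and differences between chromatin preparations cannot be told apart from those of treatment.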
